A study of Mus musculus with 4 samples.

Results

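Cadherins are calcium-dependent adhesion proteins that let cells of like kind hold on to each other. Classical cadherins (Cdh genes) bind the same or a related cadherin on the neighbouring cell and tie the membrane to actin through catenins, and delta-protocadherins (Pcdh genes) adhere more weakly and also act through the WAVE actin regulators. In the embryonic cortex they hold the ventricular zone together, guide migrating neurons and mark areas, layers and axon tracts. The genes described here are the 32 protein-coding genes of the deposited tables named Cdh or Pcdh followed by digits alone, leaving out Cdh5, the cadherin of endothelium. They are 32 of 22619 genes listed. Of these, 21 are Cdh and 11 are Pcdh genes. The name rule reaches beyond classical cadherins and delta-protocadherins: 4 cadherins (Cdh13, Cdh17, Cdh23 and Cdh26) and 3 protocadherins (Pcdh12, Pcdh15 and Pcdh20) are placed apart here. It also leaves out Pcdh11x, a delta-1 protocadherin.

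The study sequenced total RNA of E16.5 cortex from C57BL/6 mice in 4 libraries, to relate the histone variant H2A.Z.2 in neural progenitors to the brain's microglia. There were 2 libraries of H2A.Z.2 conditional knockout embryos (cKO replicates 1 and 2) and 2 of wild type (WT replicates 1 and 4). The labels name neither the Cre driver nor the deleted exons. They leave unsaid how many embryos or litters stand behind a library, so the p-values describe the spread among these 4 libraries, which may be technical. Libraries held 16625181 to 17940659 reads in genes.

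The targeted gene did not separate the labels clearly. H2afv, which encodes H2A.Z.2, was at 128 and 127 CPM (read counts scaled to an equal library size, TMM-normalised) in the libraries labelled cKO, against 136 and 222 CPM in WT replicates 1 and 4, and the libraries labelled cKO are called cKO below on their label alone. H2afz, which encodes the paralog H2A.Z.1, was at 316 and 278 CPM in cKO and 283 and 523 CPM in WT. WT replicate 4 stood apart from the other libraries. Its 10 dividing progenitor markers summed to 1263 CPM, against 545 to 633 CPM in the other 3 libraries, and all 10 had a log2 fold change below 0 (median -0.701). Hbb-y, an embryonic globin, was at 0.503 and 0.524 CPM in cKO and 2.02 and 72.2 CPM in WT, and Hba-x, another, at 1.23 and 0.816 CPM in cKO and 0.691 and 14.8 CPM in WT, so WT replicate 4 alone was high in both. All 10 cortex markers were present in every library, with sums of 2123 and 3044 CPM in cKO and 2477 and 2414 CPM in WT. No gene of 16269 tested with edgeR passed 5% FDR between cKO and WT, and 272 had an unadjusted p below 0.05. DESeq2 called 0 as well, with 377 at an unadjusted p below 0.05.

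Promoters of 4 members are shown first, to let base composition be seen beside values. They are 4 of the 9 members in which both cKO libraries lay on the same side of both WT libraries, of which 7 have a window. Pcdh17, Pcdh18 and Pcdh19 are delta-2 protocadherins and were lower in both cKO libraries, and Cdh10 is a type II cadherin and was higher in both, in no case past the test. They were chosen after their values were seen. Each window runs from 250 bases before to 50 bases after the RefSeq start of transcription, 5′ to 3′ on the gene's strand (GRCm38.p6), and capitals mark CpG dinucleotides, the sites where DNA is methylated in mammals.
Pcdh17, chr14:84443313-84443612, plus strand: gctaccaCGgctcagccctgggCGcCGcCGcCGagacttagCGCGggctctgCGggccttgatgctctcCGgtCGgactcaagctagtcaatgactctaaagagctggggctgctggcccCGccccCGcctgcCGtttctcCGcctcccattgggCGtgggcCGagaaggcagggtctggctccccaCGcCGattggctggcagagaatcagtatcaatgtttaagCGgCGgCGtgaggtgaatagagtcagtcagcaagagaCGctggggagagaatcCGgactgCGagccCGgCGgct
Pcdh18, chr3:49757267-49757566, minus strand: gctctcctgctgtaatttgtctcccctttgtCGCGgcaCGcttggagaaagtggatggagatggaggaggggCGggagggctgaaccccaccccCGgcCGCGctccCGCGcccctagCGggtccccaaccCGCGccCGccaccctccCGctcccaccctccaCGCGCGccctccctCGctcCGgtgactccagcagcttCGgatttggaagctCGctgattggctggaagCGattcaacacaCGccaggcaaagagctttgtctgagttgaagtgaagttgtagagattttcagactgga
Pcdh19, chrX:133688944-133689243, minus strand: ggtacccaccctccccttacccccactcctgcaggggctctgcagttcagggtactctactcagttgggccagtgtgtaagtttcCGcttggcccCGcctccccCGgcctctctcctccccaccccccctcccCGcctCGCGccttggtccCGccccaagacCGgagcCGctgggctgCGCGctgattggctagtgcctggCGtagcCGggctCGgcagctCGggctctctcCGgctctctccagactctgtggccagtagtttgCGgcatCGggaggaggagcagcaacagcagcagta
Cdh10, chr15:18820079-18820378, plus strand: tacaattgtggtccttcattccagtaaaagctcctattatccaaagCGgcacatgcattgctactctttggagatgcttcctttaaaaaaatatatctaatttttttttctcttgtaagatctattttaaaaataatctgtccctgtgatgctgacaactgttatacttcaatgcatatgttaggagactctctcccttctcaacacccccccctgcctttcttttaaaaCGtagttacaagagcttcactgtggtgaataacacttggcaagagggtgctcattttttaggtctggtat
The windows of Pcdh17, Pcdh18 and Pcdh19 held 26, 23 and 18 CpG dinucleotides. At least as many stood in 16.9%, 21.5% and 29.7% of the 32851 mouse promoter windows in the table. The Cdh10 window held 2, and 85.9% of all windows held at least 2. That window is at a RefSeq start inside the gene, which begins at 18818947 in the deposited tables, while the other 3 windows span the start of their gene. Of the other members whose groups did not overlap, Cdh18 and Cdh23, higher in both cKO libraries, had windows with 12 and 5 CpG dinucleotides, and Cdh20, lower in both, had 18. The Cdh18 window, from 23036213, is also inside its gene, which begins at 22549022, while those of Cdh23 and Cdh20 span the start of their gene. The median was 7 over all windows and 14 over the 25 windows of the 22 members that had one. CACCTG, the box bound by Snail and ZEB repressors, was searched on both strands, where CAGGTG is its reverse complement. It was in windows of 3 of the 22 members that had one, Cdh7, Pcdh7 and Pcdh15, and in 20.2% of all windows. The windows of Cdh7, which has several, and of Pcdh15 lie inside the gene rather than across its start. These are matches of letters. DNA methylation and factor binding were not measured.

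Of the 32 members, 27 passed the filter on low counts and 5 did not: Cdh1, Cdh3, Cdh17, Cdh19 and Cdh26. No tested member passed 5% FDR in edgeR, where percent called over all genes was 0.0. None had an unadjusted p below 0.05, against 1.67% of all genes. DESeq2 gave 0 members by either measure. By sign alone, 16 of the 27 had a log2 fold change above 0 and 11 below, against 48.1% and 51.9% of all genes. The median log2 fold change was 0.064 over the members and -0.0125 over all genes tested. Members ran from -0.88 for Cdh6 to 0.62 for Cdh12. The 2 groups did not overlap in 9 members, 5 higher and 4 lower in cKO, which is 33.3% of those tested beside 31.6% of all genes (16% higher, 15.7% lower). The members' share is near that background. No tested member had an absolute log2 fold change above 1, against 1.94% of all genes.

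The cKO replicate 2 library was the highest of the 4 in 10 members and the lowest in 9, against 22.1% and 24.4% of all genes. For cKO replicate 1 these counts were 8 and 6, against 22.7% and 22.5%. For WT replicate 1 they were 1 and 5, against 17.5% and 16.8%, and for WT replicate 4 they were 8 and 7, against 37.6% and 36.3%. The sum over all members was nearly level, at 1095 and 1109 CPM in cKO and 1077 and 1086 CPM in WT.

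**Figure D1:**
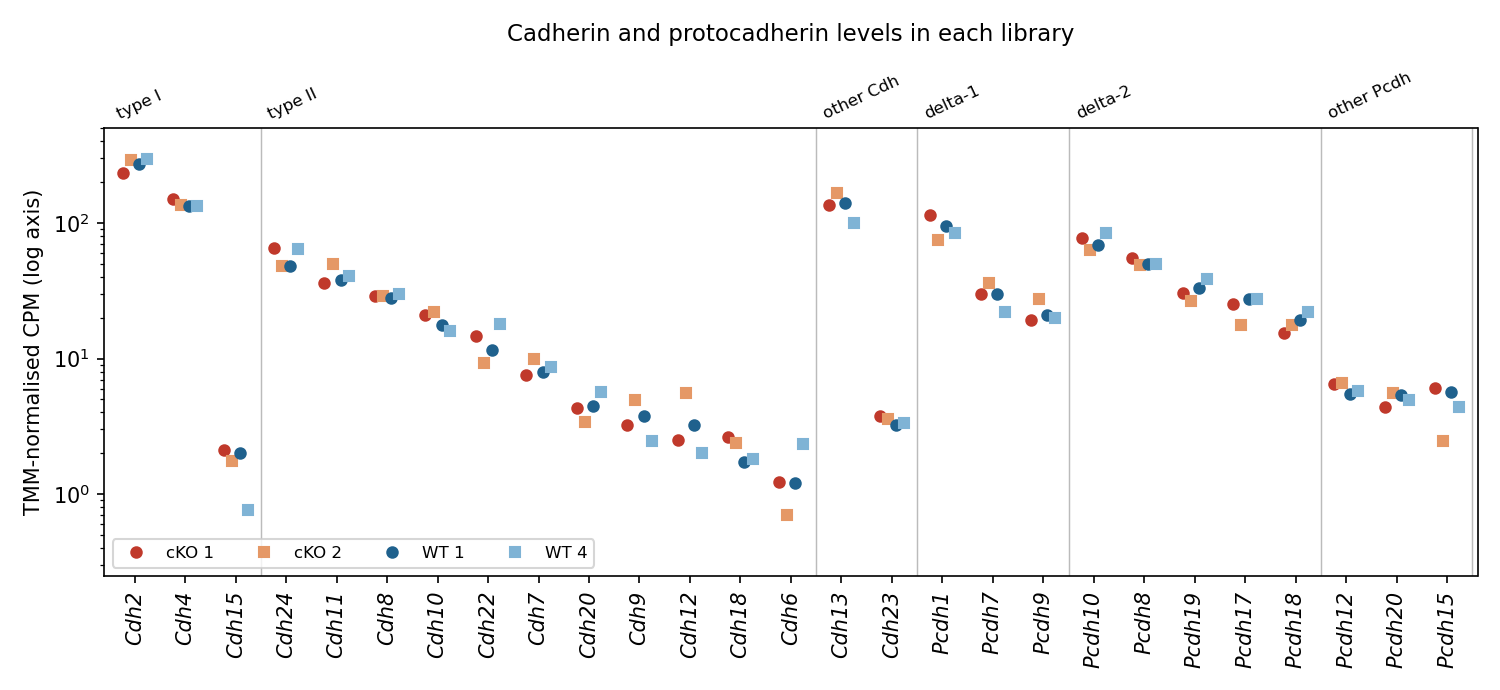
TMM-normalised CPM (log axis) of the 27 tested members in each library, with cKO libraries in red and orange and WT libraries in blue, sorted by subfamily and by level. Cdh2 is highest at 231 to 294 CPM, and Cdh6 is among the lowest at 0.699 to 2.36 CPM.

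Type I cadherins carried the most reads. Cdh2, N-cadherin, which joins neuroepithelial cells and neurons, was at 231 and 290.0 CPM in cKO, against 270.1 and 294 CPM in WT. The cKO replicate 1 value was the lowest and cKO replicate 2 lay between the WT libraries (log2 fold change -0.12, SE 0.15, 95% interval -0.48 to 0.25). Cdh4, R-cadherin, had 149 and 134 CPM in cKO and 134 and 132 CPM in WT. Both cKO values were above both WT values, by a margin that for cKO replicate 2 was 0.006 on the log2 scale (log2 fold change 0.09, SE 0.12). Cdh15, M-cadherin, known from muscle, was at 2.12 and 1.75 CPM in cKO and at 2.02 and 0.767 CPM in WT, with WT replicate 4 alone below the rest (log2 fold change 0.47, SE 0.54). Without WT replicate 4 that value was -0.05.

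Per length, the order of levels was led by the same gene. Cdh2 had a mean of 33.7 CPM per kb of exon over the 4 libraries, and its range of 28.7 to 36.5 did not reach that of any other member. Cdh4 followed at 18.9 and Cdh24 at 16.2 CPM per kb, and these overlapped each other. Cdh13, Pcdh8 and Pcdh1 came next, at 12.1, 11.2 and 10.5 CPM per kb, and neighbours in that run overlapped. A gap separated them from Pcdh10 at 4.62 CPM per kb. Cdh11 was level with Pcdh10, and its range did not reach that of Cdh8, the next in order, but overlapped those of Cdh22, Pcdh18 and Pcdh9 further down. From Cdh8, at 3.73 CPM per kb, down to Cdh18, at 0.471, each gene's range overlapped that of the next. The lowest tested members were Cdh23, Pcdh15 and Cdh6, at 0.207, 0.195 and 0.152 CPM per kb.

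Type II cadherins split by gene rather than moving one way. Of the 12, 11 were tested, with 7 log2 fold changes above 0, 4 below and a median of 0.064. Cdh10, a cadherin of developing brain, was at 21.1 and 22.0 CPM in cKO and 17.7 and 15.9 CPM in WT. Both cKO libraries lay above both WT libraries (mean 21.5 ± 0.681 against 16.8 ± 1.28 CPM, SD, n = 2 each). Its log2 fold change of 0.35 (SE 0.18, 95% interval -0.08 to 0.79) did not pass the test (edgeR adjusted p = 0.956). Cdh18 showed the same arrangement at a lower level, with 2.63 and 2.39 CPM in cKO and 1.73 and 1.83 CPM in WT (log2 fold change 0.49, SE 0.36).

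Cdh12, a brain cadherin, was at 2.51 and 5.54 CPM in cKO and 3.23 and 2.01 CPM in WT (log2 fold change 0.62, SE 0.49). The groups overlapped, and cKO replicate 2 alone was high: without it the log2 fold change was -0.06. Cdh9, known for matching neurons at hippocampal synapses, had 3.24 and 4.95 CPM in cKO and 3.75 and 2.48 CPM in WT (log2 fold change 0.39, SE 0.39). Again cKO replicate 2 was the highest and WT replicate 4 the lowest.

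Cdh9, Cdh10, Cdh12 and Cdh18 are neighbours. They lie in this order on chromosome 15 (GRCm38), Cdh9 at 16778101 to 16857094, Cdh10 at 18818947 to 19014236, Cdh12 at 21111452 to 21589533 and Cdh18 at 22549022 to 23474418, all on the plus strand. The gaps between them are 1.96, 2.10 and 0.96 Mb. All 4 had a log2 fold change above 0, a grouping chosen after their values were seen. Cdh6, 3.60 Mb before Cdh9 and on the minus strand, had the lowest log2 fold change of the members. Cdh6, a marker of areas and layers in developing cortex, was at 1.23 and 0.699 CPM in cKO and 1.21 and 2.36 CPM in WT (log2 fold change -0.88, SE 0.54). The cKO replicate 1 value lay just above WT replicate 1, so the groups overlapped.

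Among the other type II genes, Cdh20 was lower in both cKO libraries, at 4.30 and 3.38 CPM against 4.44 and 5.67 CPM in WT (log2 fold change -0.39, SE 0.32). Cdh22, a cadherin of brain and pituitary, had 14.6 and 9.21 CPM in cKO and 11.5 and 17.8 CPM in WT (log2 fold change -0.30, SE 0.33). Its groups overlapped, and without WT replicate 4 the value was 0.06. Cdh8, a marker of cortical areas, was nearly level, at 29.1 and 28.7 CPM in cKO and 28.0 and 29.8 CPM in WT. Its log2 fold change of -0.003 had a 95% interval of -0.38 to 0.38. Cdh24 had 65.2 and 48.4 CPM in cKO and 48.3 and 64.5 CPM in WT, so 1 library of each group was high. Cdh11, of mesenchyme and brain, was at 36.1 and 49.7 CPM in cKO and 37.9 and 40.7 CPM in WT, and cKO replicate 2 alone was high. Meningeal fibroblast markers, of which 1 of 10 had a log2 fold change above 0 and none was at 0, summed to 36.6 and 65.8 CPM in cKO and 86.2 and 31.6 CPM in WT, and their part in the Cdh11 values was not tested. Cdh7 had 7.54 and 9.85 CPM in cKO and 8.01 and 8.62 CPM in WT, with the WT values inside the cKO range. The log2 fold changes of Cdh24, Cdh11 and Cdh7 were 0.01, 0.13 and 0.06.

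**Figure D2:**
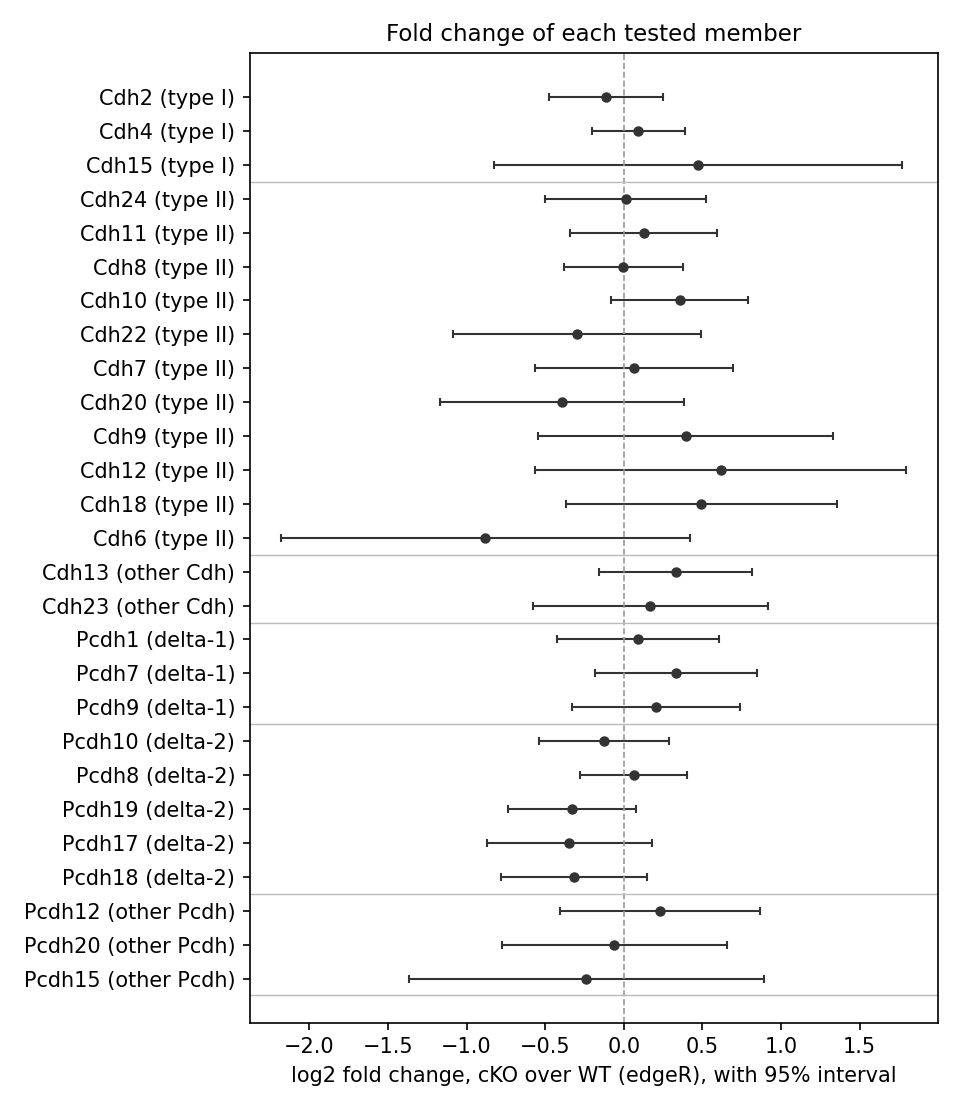
Log2 fold change of each tested member, cKO over WT, from the edgeR fit across all genes, with 95% intervals as bars and subfamilies from top to bottom. All 27 intervals cross 0, and the points run from -0.88 (Cdh6) to 0.62 (Cdh12).

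Of the cadherins placed apart, 2 of 4 were tested. Cdh13, T-cadherin, which is held by a lipid anchor and lacks the tail that binds catenins, had 135 and 166 CPM in cKO and 141 and 99.3 CPM in WT. WT replicate 1 lay between the cKO libraries, and WT replicate 4 was lowest (log2 fold change 0.33, SE 0.20, 95% interval -0.16 to 0.81, edgeR adjusted p = 0.956). Without WT replicate 1 it was the member past 5% FDR, at 0.60 (edgeR adjusted p = 0.0210). In that fit WT replicate 4 is the lone WT library and is assumed to vary like the cKO group, and 10.9% of all genes were called. Cdh23, a cadherin of the hair cell tip link, had 3.80 and 3.61 CPM in cKO and 3.23 and 3.37 CPM in WT, both cKO values being above both WT values (log2 fold change 0.17, SE 0.31).

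The delta-1 protocadherins had 3 of 3 log2 fold changes above 0, and their groups overlapped in each. Pcdh7 was at 29.7 and 36.1 CPM in cKO and 30.0 and 22.1 CPM in WT (log2 fold change 0.33, SE 0.21). WT replicate 1 lay between the cKO libraries. Of the Pcdh7 exon bases, 21.1% are shared with 4932441J04Rik on the other strand, where reads of the 2 cannot be told apart without strand. 4932441J04Rik was given 28 and 28 reads in cKO and 21 and 16 in WT. Pcdh7 had 531 and 620 reads in cKO and 521 and 375 in WT. The next largest such share among the members was 9.61%, in Pcdh8. Pcdh9, the longest delta-protocadherin gene of this set, had 19.4 and 27.5 CPM in cKO and 20.9 and 19.8 CPM in WT (log2 fold change 0.20, SE 0.22), and cKO replicate 2 alone was high. Pcdh1 was at 114 and 75.2 CPM in cKO and 94.5 and 83.8 CPM in WT. Its highest and lowest values were both cKO libraries, so the sign of its log2 fold change of 0.09 (SE 0.21) turned to -0.25 without cKO replicate 1. Pcdh11x, the delta-1 gene outside the name rule, had 10.4 and 6.99 CPM in cKO and 9.68 and 11.2 CPM in WT, a log2 fold change of -0.26 (SE 0.28).

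The delta-2 protocadherins pointed the other way, with 4 of 5 log2 fold changes below 0 and a median of -0.317. The dividing progenitor markers, none of them at 0, summed to 620 and 545 CPM in cKO and 633 and 1263 CPM in WT, and 6 of the 10 were lower in both cKO libraries than in both WT libraries. Pcdh19 and Cdh20 had the library order of these sums (WT replicate 4, WT replicate 1, cKO replicate 1, cKO replicate 2 from high to low), 2 of 27 members beside 6.5% of all genes, and the part of progenitors in the members' values was not tested. In 3 of the 5 delta-2 genes, both cKO libraries were below both WT libraries, beside 15.7% of all genes. Pcdh19, linked to epilepsy in girls and a partner of N-cadherin, was at 30.3 and 26.7 CPM in cKO, against 33.3 and 38.3 CPM in WT (mean 28.5 ± 2.54 against 35.8 ± 3.54 CPM, SD, n = 2 each). The cKO values were the lower pair, and the groups did not overlap. Its log2 fold change was -0.33 (SE 0.17, 95% interval -0.74 to 0.08, edgeR adjusted p = 0.956). Pcdh18 was at 15.5 and 17.6 CPM in cKO and 19.3 and 22.0 CPM in WT (log2 fold change -0.32, SE 0.19), again without overlap.

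Pcdh17, which acts at synapses of cortex and basal ganglia and in axon extension through WAVE, had 25.4 and 17.7 CPM in cKO. The WT libraries had 27.5 and 27.3 CPM. Both cKO values were lower, cKO replicate 2 by far the more. The log2 fold change was -0.35 (SE 0.22, 95% interval -0.87 to 0.18) and came to -0.11 without cKO replicate 2 and -0.63 without cKO replicate 1. Pcdh10, needed for growth of striatal axons, was at 77.4 and 63.0 CPM in cKO and 68.9 and 84.5 CPM in WT, and the groups overlapped (log2 fold change -0.13, SE 0.17). Pcdh8, an activity-linked protocadherin that draws N-cadherin into the cell, was at 54.7 and 49.2 CPM in cKO and 49.5 and 49.9 CPM in WT (log2 fold change 0.06, SE 0.14). Its WT values lay between the cKO values.

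Of the protocadherins placed apart, Pcdh12, which like Cdh5 is made by endothelium, was at 6.48 and 6.64 CPM in cKO and 5.47 and 5.73 CPM in WT. Both cKO values were higher (log2 fold change 0.23, SE 0.26). Of the 10 endothelial markers 7 had a log2 fold change above 0, with sums of 185 and 173 CPM in cKO and 179 and 155 CPM in WT, and none was at 0. These sums overlapped between the groups. Cdh5, Flt1 and Kdr, the markers below 0, had log2 fold changes of -0.03, -0.04 and -0.21. Erythroid markers summed to 422 and 389 CPM in cKO and 475 and 383 CPM in WT, with 3 of 7 tested above 0. Hba-a1 made up most of these sums. Hbb-bh1 was at 0 in cKO replicate 1 and was not listed for cKO replicate 2 or WT replicate 1. The part of blood vessels in the Pcdh12 values was not tested. Pcdh20 had 4.36 and 5.54 CPM in cKO and 5.36 and 4.96 CPM in WT, without a clear order (log2 fold change -0.06, SE 0.30). Pcdh15, a tip-link protein also found in oligodendrocyte precursors, was at 6.03 and 2.45 CPM in cKO and 5.65 and 4.37 CPM in WT. Here the cKO libraries were the highest and the lowest of the 4, and the log2 fold change of -0.24 (SE 0.47) became 0.27 without cKO replicate 2.

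**Figure D3:**
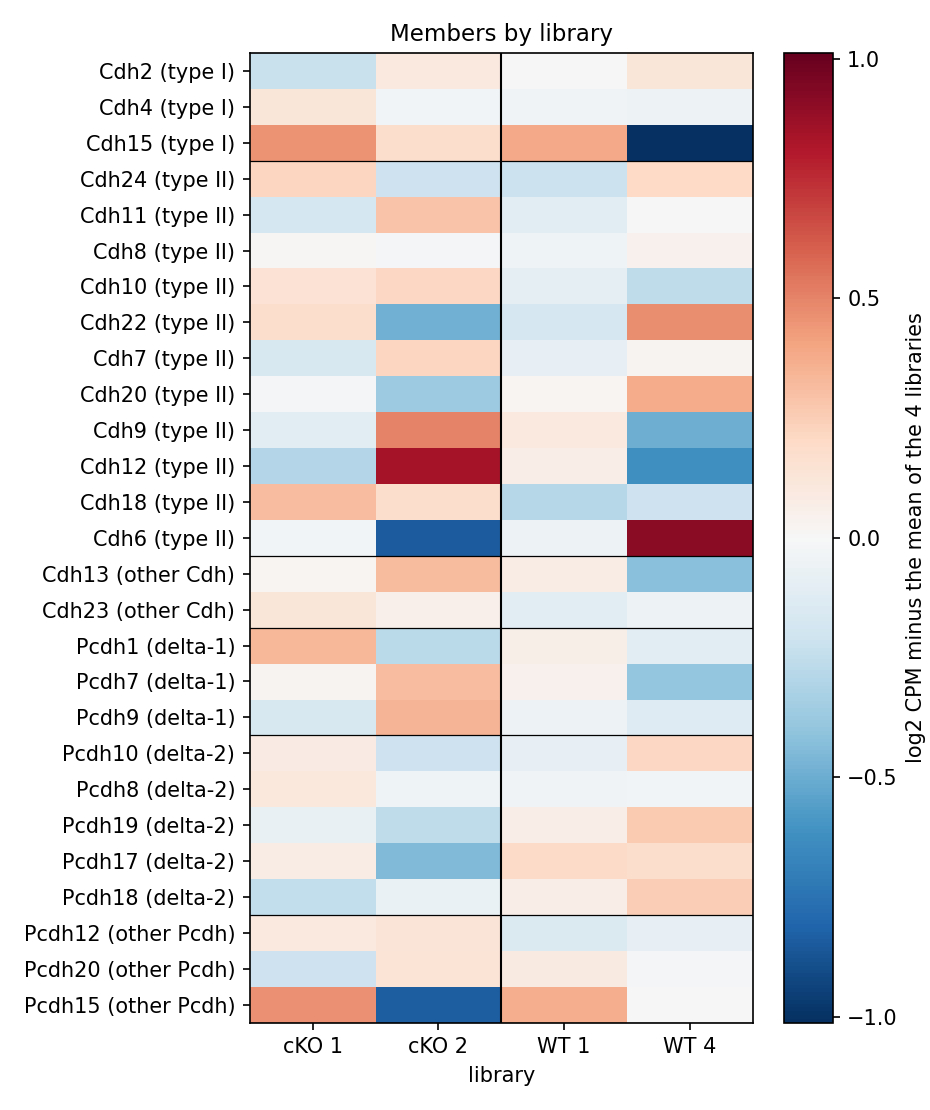
Log2 CPM of each tested member minus its mean over the 4 libraries, with libraries in columns and red for above the mean. Pcdh17, Pcdh18, Pcdh19 and Cdh20 are lower in both cKO columns than in both WT columns, and the extreme values stand in single libraries such as cKO replicate 2 (Cdh12, Pcdh15) and WT replicate 4 (Cdh15, Cdh6).

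Among the 5 members under the filter, Cdh1 and Cdh3 differed most in reads. Cdh1, E-cadherin of epithelia, had 1 and 1 reads in cKO, against 8 and 10 reads in WT. That is 2 reads against 18, a ratio of 0.109 (exact 95% interval 0.0122 to 0.454, covering counting error only), and edgeR without the filter gave an adjusted p of 0.958. Cdh3, P-cadherin, which lies 46.1 kb before Cdh1 on chromosome 8, had 24 and 3 reads in cKO and 5 and 3 reads in WT, so cKO replicate 1 alone was high. That library also had the highest sum of choroid plexus markers. The 10 markers of this tissue summed to 517 and 61.5 CPM in cKO and to 43.8 and 18.1 CPM in WT. Ttr, at 465 and 48.2 CPM in cKO and 26.7 and 0.472 CPM in WT, made up most of the sum in every library but WT replicate 4. All tested markers but Otx2 were highest in cKO replicate 1, and Otx2 was highest in WT replicate 4. Of the 7 tested choroid plexus markers 5 had a log2 fold change above 0. Slc4a5 was at 0 in WT replicate 4. Kcnj13 was not listed for cKO replicate 2 or WT replicate 1 and entered their sums as 0. The part of these markers in the Cdh3 reads was not tested. Cdh17 had 2 to 5 reads and Cdh26 1 to 2 reads per library. Cdh19 was listed in 1 table only, with 1 read in cKO replicate 1 and 4 in WT replicate 4.

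Markers of neighbouring brain regions differed between libraries, and several members had the same or the opposite order. The 10 ganglionic eminence markers, of the ventral forebrain next to the cortex, summed to 1029 and 646 CPM in cKO and 798 and 1296 CPM in WT. The 10 thalamus and hypothalamus markers summed to 113 and 33.4 CPM in cKO and 89.6 and 216 CPM in WT, and Otp and Sim1 were at 0 in cKO replicate 2. In both sums the libraries therefore ran, from high to low, WT replicate 4, cKO replicate 1, WT replicate 1 and cKO replicate 2. Nkx2-1 and Six3 made up most of the second sum in each library, so its order was largely theirs. Whether the sums are separate signals was not tested. Nkx2-1, Six3, Gbx2 and Otp had that order, while Lhx9, Tcf7l2 and Sim1 had WT replicate 1 above cKO replicate 1. In the first list, Lhx6 and Gad1 were highest in cKO replicate 1 and Sp8 was lowest in WT replicate 1. The rest of that list had the order of its sum. All 10 tested markers of the first list and all 7 of the second had a log2 fold change below 0. Cdh6, Cdh22 and Pcdh10 had the order of both sums, 3 of 27 members beside 8.14% of all genes. This order was chosen after the values were seen. Cdh9, Cdh12, Cdh13 and Pcdh7 had exactly the reverse, 4 of 27 beside 8.03%. The part of neighbouring tissue in these values was not tested, and in bulk RNA fewer cells of a type and less RNA per cell cannot be told apart.

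**Figure D4:**
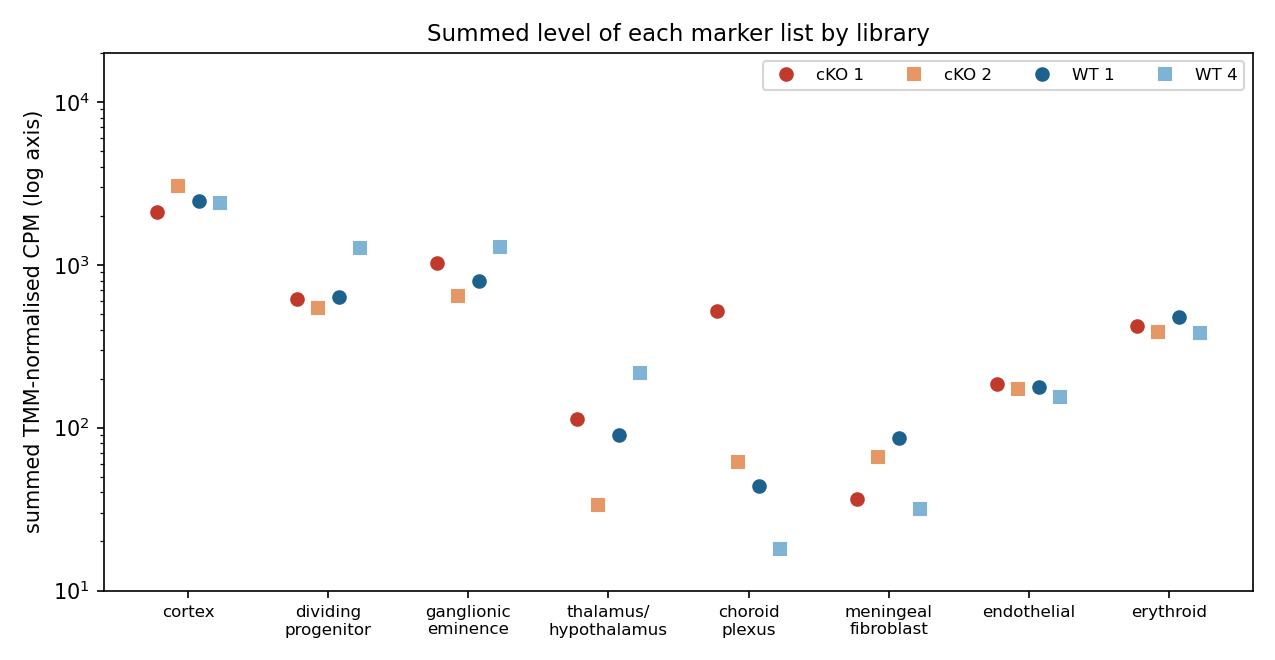
Summed TMM-normalised CPM (log axis) of each marker list in each library, cKO in red and orange and WT in blue. Choroid plexus markers are highest in cKO replicate 1 (517 CPM), and dividing progenitor (1263 CPM), ganglionic eminence (1296 CPM) and thalamus and hypothalamus markers (216 CPM) in WT replicate 4.

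The partners of cadherins showed no common direction. Of 16 catenins and junction genes 15 were tested, with 6 log2 fold changes above 0, 9 below, a median of -0.048 and none past 5% FDR. Ctnna1, the alpha-catenin of progenitors and epithelia, was at 66.0 and 58.9 CPM in cKO and 71.4 and 108 CPM in WT (log2 fold change -0.52, SE 0.21). Both cKO values were lower, and WT replicate 4 was high. Ctnna2, the neuronal alpha-catenin, was nearly level at 205 and 208 CPM in cKO and 219 and 207 CPM in WT. Jup, plakoglobin, had 69.7 and 60.8 CPM in cKO and 54.9 and 54.3 CPM in WT (log2 fold change 0.26, SE 0.14). Vcl, vinculin, had a log2 fold change of -1.17 (SE 0.66) at 1.16 to 6.79 CPM, and Nectin3 one of -0.28 (SE 0.18).

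Of the 10 genes of the WAVE complex and PP1, to which delta-protocadherins bind, 3 had log2 fold changes above 0 and 7 below, with a median of -0.051. Wasf1 was at 102 and 112 CPM in cKO and 94.3 and 90.4 CPM in WT (log2 fold change 0.21, SE 0.13), both cKO values being higher. Cyfip1, Wasf2 and Wasf3 had log2 fold changes of -0.17, -0.19 and -0.12. The large cadherins of the Fat, Dachsous and Celsr families had 4 of 8 above 0. Celsr1, a polarity cadherin of progenitors, was at 113 and 103 CPM in cKO and 120 and 189 CPM in WT (log2 fold change -0.51, SE 0.22), and Celsr3, its relative in neurons, at 467 and 481 CPM in cKO and 431 and 330 CPM in WT (log2 fold change 0.32, SE 0.16). In both genes WT replicate 4 was the farthest from the others. Fat1 and Dchs1 had log2 fold changes of -0.53 and 0.16. Of the 4 tested repressors of cadherin genes 3 were below 0. Zeb1 was at 52.2 and 42.8 CPM in cKO and 48.9 and 71.6 CPM in WT (log2 fold change -0.34, SE 0.22), and Tcf3, Snai1 and Zeb2 had log2 fold changes of -0.22, -0.25 and 0.10. None of the genes in these lists passed 5% FDR.

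The authors compared 1 cKO library with 1 WT library in each of their tables, so their p-values hold no replicate spread. In the authors' deposited table with cKO replicate 1 over WT replicate 4, Cdh3 (log2 fold change 2.89) and Cdh15 (1.44) were higher and Cdh1 (-3.43) lower past an adjusted p of 0.05 and a log2 fold change of 1, beside 4.51% of genes higher and 4.21% lower. In the authors' deposited table with cKO replicate 2 over WT replicate 1, Pcdh15 (-1.24) was the member past both, beside 1.16% of genes lower and 0.464% higher. By the adjusted p alone, the first of the authors' deposited tables had 7 members higher and 8 lower of 32, beside 20.0% and 25.2% of genes. The second of the authors' deposited tables had 5 higher and 4 lower of 31, beside 5.04% and 8.26%. By the same measure, the authors' deposited tables, which share no library, both had Cdh13 and Pcdh7 higher and Pcdh19 lower. The log2 fold changes in the authors' deposited tables were 0.42 and 0.21 for Cdh13, 0.39 and 0.23 for Pcdh7 and -0.37 and -0.35 for Pcdh19. For Cdh13 and Pcdh7 the direction depended on which libraries were paired. With cKO replicate 1 set against WT replicate 1, the log2 difference in TMM-normalised CPM was -0.055 for Cdh13, -0.017 for Pcdh7 and -0.137 for Pcdh19. The authors' deposited tables put Pcdh1 and Cdh11 past that threshold in opposite directions. Over the 19844 genes in both of the authors' deposited tables, 2.67% were higher in both, 3.66% lower in both and 3.62% opposite.

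Many members had a long gene body, a feature the name rule did not use. Their median span was 153 kb over the 27 tested, against 20.3 kb over all genes tested, and 63.0% spanned more than 100 kb, against 13.7% of all genes. The longest were Pcdh15 at 1550 kb and Cdh13 at 1041 kb, and 6 members were shorter than the median of all genes: Pcdh8 at 4.5 kb, Pcdh20, Cdh24, Pcdh18, Pcdh12 and Cdh15 at 19.4 kb. Across the 27 members, which share the same 4 libraries, gene span and log2 fold change had a Spearman rho of 0.269, and across all 16269 genes it was -0.102. Genes are not independent replicates.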

How the data were processed

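Total RNA of E16.5 cortex was sequenced in 4 libraries, 2 cKO and 2 WT. Tools in the submitters' processing notes are TopHat2 2.0.12 with Bowtie2 2.2.3, then HTSeq 0.6.0, and the build is mm9, but gene positions matched GRCm38 (92.1% of 22574 genes with the same start and end in GENCODE M21). The sources used here do not state the strand setting of the counting. Per the file headers, the authors deposited read counts, normalised values, fold change (a ratio), log2 fold change, p-value and adjusted p. Columns were matched to libraries by header. The sample descriptions of WT replicate 4 and cKO replicate 2 name deposited tables that do not match these headers. The deposited normalised values were a constant times the count (CPM), with 0.5 reads in place of 0. An empty line in each deposited file is not used here.

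Counts of the 19844 genes in both tables were tested with edgeR 4.0.16 (R 4.3.3, two-sided quasi-likelihood test, TMM scaling, Benjamini-Hochberg adjustment; low genes removed by filterByExpr, minimum count 10), leaving 16269 genes. The biological coefficient of variation was 0.194 with 2 residual degrees of freedom. Intervals are 95%. CPM values are TMM-normalised, and values per kb use GENCODE exon lengths, which pool the exons of all transcripts of a gene. Of the 32 members, 26 had the same start and end in GENCODE M21. Pcdh12, Pcdh17, Cdh6, Cdh9, Cdh12 and Cdh24 did not, so their values per kb are less certain. Promoters are RefSeq's. The pipeline was tested on simulated data. Alternatives were DESeq2 1.42.0, other scalings, other filters, the deposited table as a block and each library left out.

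Every member is named, as are H2afv, H2afz and Pcdh11x. Lists of partners, large cadherins and repressors give the 4 genes with the smallest unadjusted p. Marker lists are given as sums. Ctnna2, the globins, markers at 0 or not listed for every library (Otp, Sim1, Slc4a5, Hbb-bh1, Kcnj13) and the other markers named singly were named after their values were seen. Members and lists were chosen with earlier results of these data known, so no value here is independent support for them.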

Additional observations from a re-analysis of the deposited data

How the results depend on the processing

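Each setting changes 1 choice, except that DESeq2 also brings its own scaling and that leaving out a library reruns the filter, so that 16896 to 16964 genes were tested. No paired analysis was possible because the groups share 1 replicate number only; the deposited table served as a block instead. Outside the fits with a library left out, 0 genes passed 5% FDR under every setting, and of 189 member log2 fold changes 188 kept their sign and their side of the threshold, the exception being Cdh24 at -0.021 with library totals only. The median over members was 0.031 and that of type I cadherins 0.062 with library totals only, and the median over members was 0.086 with no filter. Without a filter 1 member (Cdh1) and with the block 1 (Cdh13) had an unadjusted p below 0.05.

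With each library left out in turn, genes past 5% FDR ran from 0 to 1849 (without WT replicate 1; 1 without cKO replicate 1), members past it from 0 to 1, members with an unadjusted p below 0.05 from 0 to 5, and members without overlap from 12 to 24, where a lone library overlaps less often. Medians ran from 0.012 to 0.082 over all members, 0.022 to 0.717 for type I (Cdh3 entering the filter), -0.007 to 0.245 for type II, 0.137 to 0.435 for delta-1 and -0.338 to -0.111 for delta-2 genes. They ran from -0.11 to 0.21 for the protocadherins placed apart, -0.143 to 0.015 for catenins, -0.153 to 0.016 for WAVE and PP1, -0.137 to 0.126 for Fat, Dachsous and Celsr genes and -0.328 to 0.042 for repressors. Signs turned within the range in Cdh11 (-0.123 to 0.34), Cdh12 (-0.059 to 1.079), Cdh15 (-0.053 to 1.33), Cdh2 (-0.287 to 0.039), Cdh22 (-0.669 to 0.058), Cdh24 (-0.219 to 0.24), Cdh7 (-0.141 to 0.245), Cdh8 (-0.044 to 0.049), Pcdh1 (-0.245 to 0.36), Pcdh10 (-0.282 to 0.033), Pcdh15 (-1.03 to 0.268), Pcdh20 (-0.244 to 0.102), Pcdh8 (-0.015 to 0.137) and Pcdh9 (-0.07 to 0.435). The cause was not tested. With 2 libraries a group, the 11 tested members averaging under 10 CPM had 95% intervals wider than 1 on the log2 scale. So did Cdh22, Cdh24, Pcdh1, Pcdh7, Pcdh9 and Pcdh17, which averaged above 10 CPM.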
